A study of Mus musculus with 27 samples.

Results

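The mitochondrial DNA, tRNA synthetase and translation factors are nuclear genes whose proteins copy and transcribe the mitochondrial genome and translate its messages. They were taken here as a fixed list of 31 symbols, and every array probe whose gene name was one of these symbols counted as a member probe. The array carried 30 of the 31 symbols on 46 of its 55681 probes. *Slirp* was not on the array by that symbol, and 25 members gave values on enough arrays to be tested. The list was not chosen by the values described here, although earlier results of these data were known when it was made.

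Mitochondria keep a small genome that encodes core subunits of the respiratory chain together with the ribosomal and transfer RNAs needed to translate them. All proteins of that translation machinery are made in the cytosol and imported. Mitochondrial aminoacyl-tRNA synthetases, whose symbols here end in 2, charge each mitochondrial tRNA with its amino acid. Initiation factors (*Mtif2*, *Mtif3*) start translation, elongation factors (*Tufm*, *Tsfm*, *Gfm1*) carry it on, release factors (*Mtrf1*, *Mtrf1l*) end it, and *Mrrf* with *Gfm2* splits the ribosome for another round. *Lrpprc* and *Slirp* form a complex that stabilizes mitochondrial messages. *Polrmt* transcribes the genome, *Polg* with its accessory subunit *Polg2* copies it, and *Ssbp1* coats single-stranded mitochondrial DNA. Inherited defects of many of these genes cause mitochondrial disease, in which muscle is among the tissues affected.

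RNA of single myofibers of the tibialis anterior muscle of male mice, given in the labels as 3 months old, was amplified and hybridized in 1 colour, each myofiber to its own array. The 8 WT myofibers came from 2 mice. The 12 Smn1deltaSKM myofibers came from 3 mice of the genotype HSA-Cre:Smn F7/F7, in which the promoter of skeletal actin drives Cre to delete *Smn1* in skeletal muscle. The 7 Smn1deltaSKM+AFS myofibers came from 2 such knockout mice that had received amniotic fluid stem cells, sorted for c-kit and GFP, through the tail vein. By the study's methods, these mice were injected at 3 months and killed 1 month later, which differs from the age in the labels. The labels do not settle whether the WT mice were littermates or the C57BL/6 GFP+ mice named in the methods. Neither a WT group with the cells nor a sham injection was analysed here. Levels are given as log2 signal relative to the 75th percentile of the same array, so that a smaller share of the RNA of a myofiber and fewer copies per myofiber cannot be told apart. Because genotype and treatment belong to the mouse, levels were averaged within each mouse, and differences were tested between mouse means.

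Between 23183 and 37595 probes had a value on an array, and no pair of the 27 arrays held identical values. Of the 2 *Smn1* probes, 1 lay at 1.86 and 1.84 in the WT mice and at -0.07, 0.20 and 0.36 in the Smn1deltaSKM mice (difference -1.68, limma, adjusted p = 0.0205 over all probes), while the other differed by 0.19 (adjusted p = 0.717). Which exon each probe reads was not determined here. All 6 myofiber markers had values in each group, with summed levels (log2) of 11.20 to 11.29 in WT mice, 10.53 to 10.73 in Smn1deltaSKM mice and 10.91 to 11.14 in Smn1deltaSKM+AFS mice. The WT arrays shared a slide and a scan day with no array of the other groups, so batch and genotype cannot be told apart. Smn1deltaSKM myofibers 1 to 3, from mouse 1, were scanned on another day than the other 9 Smn1deltaSKM myofibers, and mouse 1 often lay apart from mice 2 and 3, as the values below show.

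The members were not seen equally well in single myofibers. For 16 of the 30 on the array, the probe that stood for the gene had values on all 27 arrays. *Nars2* (asparaginyl-tRNA synthetase) had no value on any array. *Mars2* (methionyl-tRNA synthetase) had values on 2 of 8 WT, 5 of 12 Smn1deltaSKM and 3 of 7 Smn1deltaSKM+AFS arrays. *Tufm*, the elongation factor that brings charged tRNAs to the ribosome, had values on 7, 7 and 5 arrays of these groups. *Mtrf1l*, a release factor, had values on all 8 WT arrays but on 4 Smn1deltaSKM arrays and 1 Smn1deltaSKM+AFS array. The better covered *Vars2* probe (valyl-tRNA synthetase) went the other way, with values on 2, 9 and 3 arrays, whereas its second probe had values on 6, 1 and 3. These 5 genes were not tested, and detection alone gives no direction for *Vars2*.

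**Figure D1:**
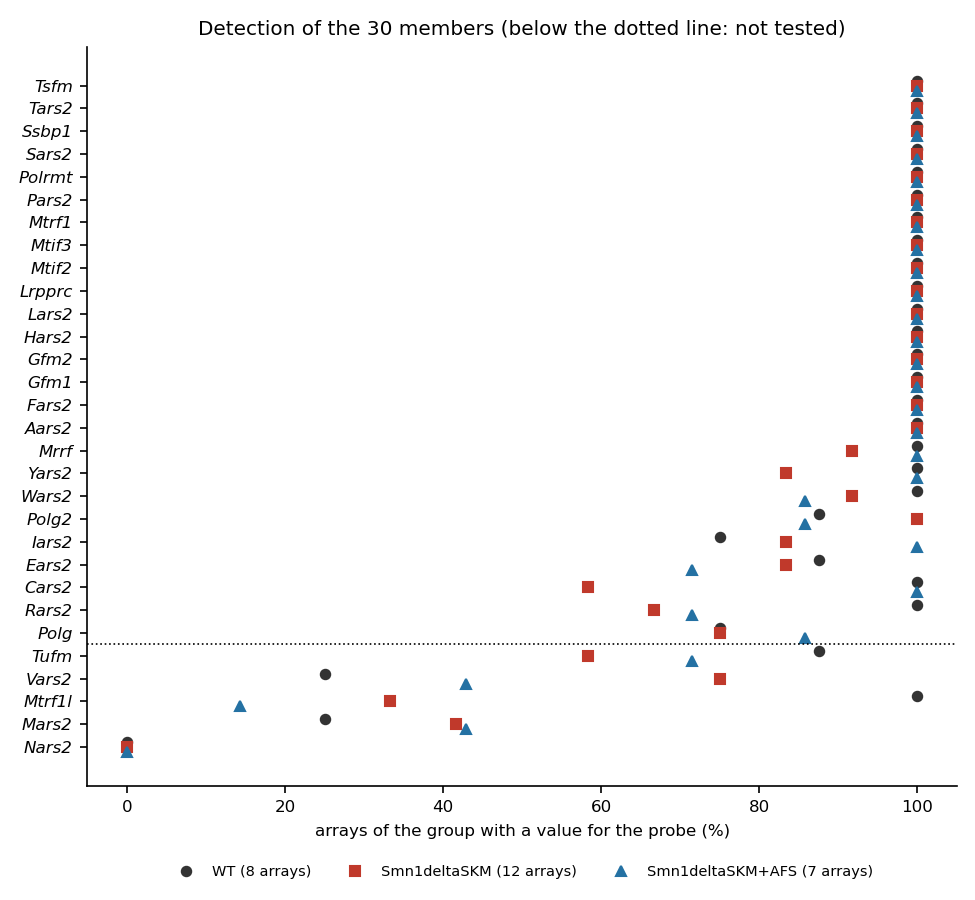
Share of arrays (%, horizontal axis) of each group on which the probe of each of the 30 members had a value, for the tested probe or, below the dotted line, for the best covered probe of the 5 members that were not tested. Most members had values on all arrays, *Nars2* on none, and *Mtrf1l* on all WT arrays but few of the others.

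The comparison of Smn1deltaSKM with WT asks how these genes stand in myofibers of mice labelled as deleted for *Smn1* in skeletal muscle. Of the 25 tested members, 9 were called lower in Smn1deltaSKM at an adjusted p under 0.05 (limma with Benjamini-Hochberg adjustment over 17059 genes), and none was called higher. Over all genes tested 21.7% were called, 14.1% as lower and 7.67% as higher. Lower genes made up 64.7% of these calls, and 44.1% with each array centred on its median. At an unadjusted p under 0.05 stood 11 of 25 members, against 39.2% of all genes. The 9 were the synthetases *Cars2*, *Fars2*, *Rars2* and *Sars2*, the translation factors *Gfm1*, *Gfm2*, *Mrrf* and *Mtif3*, and *Lrpprc*. Of these, *Cars2* and *Rars2* had values on 7 and 8 of the 12 Smn1deltaSKM arrays and passed the filter on missing values only through WT, where they were higher, so their calls carry no weight in the count. The other 7 calls were of genes with values on at least 11 of the 12 Smn1deltaSKM arrays. Of the 25 differences 21 were below 0, against 55.5% of all genes, and their median was -0.70 against -0.14. By role, 4 of 13 synthetases, 4 of 7 translation factors and 0 of 4 genes of mitochondrial DNA copying and transcription were called. The 4 synthetases include *Cars2* and *Rars2*. In 17 of the 24 members with values in every mouse (70.8%), the mice of the 2 groups did not overlap, 15 of them with Smn1deltaSKM below WT, while 55.4% of all genes had no overlap.

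**Figure D2:**
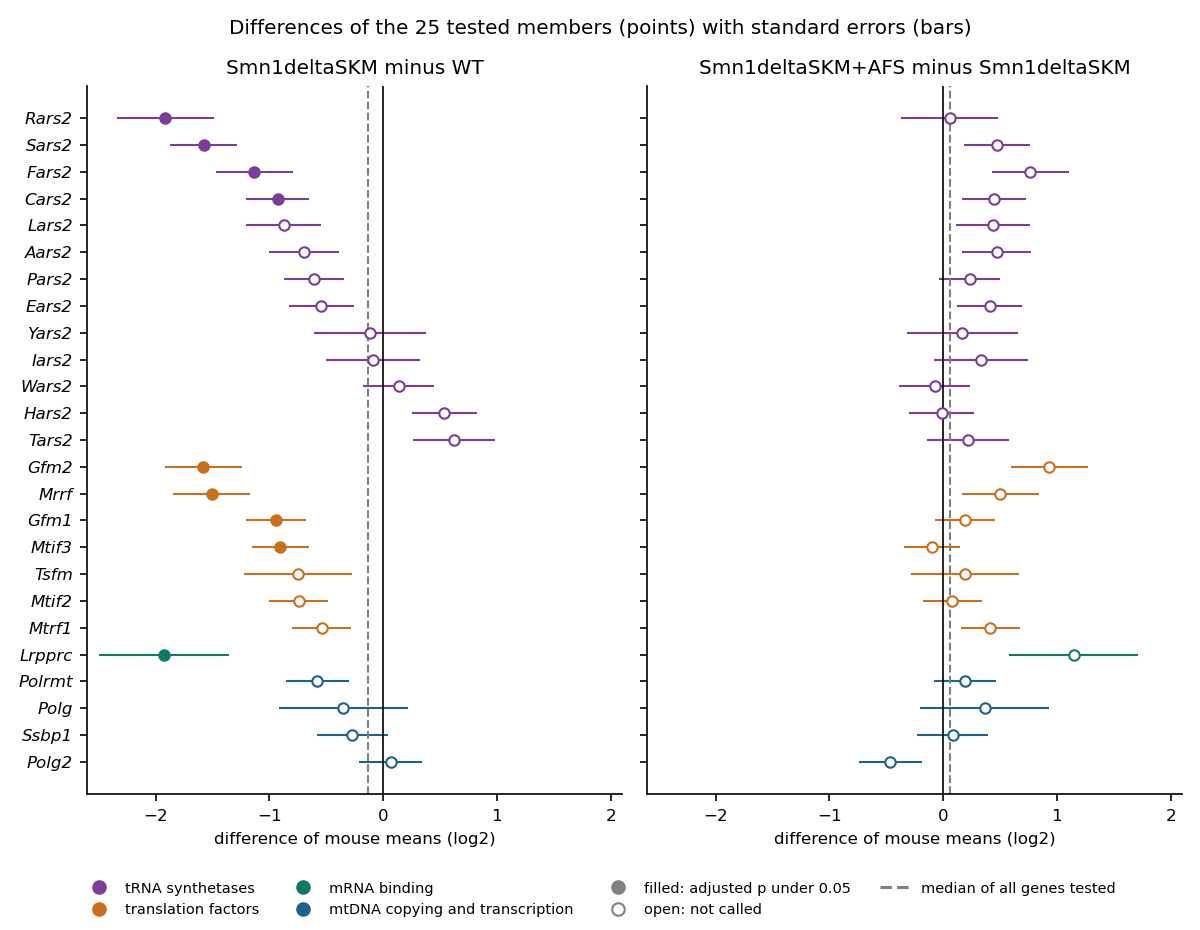
Differences of mouse means on the log2 scale (horizontal axis) with their standard errors for the 25 tested members, ordered by role, for Smn1deltaSKM minus WT (left) and Smn1deltaSKM+AFS minus Smn1deltaSKM (right). Filled points were called; 9 are filled on the left and none on the right, and the dashed line is the median of all genes tested.

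What the members share in sequence was looked for in the 250 bases before their start sites, from RefSeq (GRCm38.p6), which held 28 of the 31 genes. The search used CCGGAAG, the core read by ETS factors such as GABP, and the NRF1 site, GCGCA and GCGC parted by any base, on both strands. The motifs do not share these letters in any of the sequences shown. Both factors are known regulators of nuclear genes of the mitochondrion. The ETS core stood in 9 of the 28 promoters (32.1%), against 7.05% of the 27025 promoters of all genes and 9.12% of the 17491 of protein-coding genes. It was found in 2 of the 8 called members with a promoter, *Sars2* and *Cars2*, and in 5 of the 14 tested members that were not called. The 8 include *Cars2* and *Rars2*, whose calls carry no weight, so these counts do not compare called with uncalled members. The NRF1 site stood in 1 of 28, *Gfm2*, against 3.86% of all promoters. *Polrmt*, *Polg*, *Polg2* and *Ssbp1* each held 1 ETS core and *Slirp* held 3. Upstream sequences of the 3 called members with a match are shown as those in which a matched run stands before a called gene, with the matched letters in capitals and each sequence written in the direction of its gene: *Gfm2* at chr13:97137687-97137936 on the plus strand, *Sars2* at chr7:28741718-28741967 on the plus strand and *Cars2* at chr8:11550772-11551021 on the minus strand.
Gfm2: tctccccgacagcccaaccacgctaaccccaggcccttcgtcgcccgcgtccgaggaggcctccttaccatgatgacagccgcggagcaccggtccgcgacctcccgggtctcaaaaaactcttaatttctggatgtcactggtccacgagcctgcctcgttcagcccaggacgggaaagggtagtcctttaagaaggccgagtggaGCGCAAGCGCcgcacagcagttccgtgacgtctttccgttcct
Sars2: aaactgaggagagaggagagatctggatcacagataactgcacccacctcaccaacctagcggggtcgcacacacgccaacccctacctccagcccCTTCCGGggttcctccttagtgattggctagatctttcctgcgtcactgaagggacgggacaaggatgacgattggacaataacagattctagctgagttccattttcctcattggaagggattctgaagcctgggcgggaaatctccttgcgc
Cars2: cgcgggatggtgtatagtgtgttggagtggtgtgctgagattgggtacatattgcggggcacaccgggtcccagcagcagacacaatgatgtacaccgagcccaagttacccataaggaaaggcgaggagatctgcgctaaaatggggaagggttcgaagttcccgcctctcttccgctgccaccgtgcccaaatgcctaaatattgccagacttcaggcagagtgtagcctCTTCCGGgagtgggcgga
The NRF1 letters of *Gfm2* read along the gene, and the ETS cores of *Sars2* and *Cars2* read on the opposite strand. A match is a run of letters and shows no binding.

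Among the synthetases, *Sars2*, which charges the serine tRNAs and whose upstream sequence is shown above, stood at 0.54 and 0.56 in the WT mice, at -1.41, -0.79 and -0.88 in the Smn1deltaSKM mice and at -0.74 and -0.37 in the Smn1deltaSKM+AFS mice. All Smn1deltaSKM mice lay below both WT mice, and so did 11 of their 12 myofibers when set against the lowest WT myofiber. The level was lower by a difference of -1.58 (standard error 0.29, limma, adjusted p = 0.0140), or 2.99-fold. *Rars2* (arginyl-tRNA synthetase) stood at -0.02 and -1.08 in the WT mice, at -2.27 and -2.66 in Smn1deltaSKM mice 2 and 3 and at -2.17 and -2.65 in the Smn1deltaSKM+AFS mice. Smn1deltaSKM mouse 1 had no value, since the *Rars2* probe was well above background on none of its 4 arrays, and it was left out of the fit. Both measured Smn1deltaSKM mice lay below both WT mice, and the WT mice differed widely from each other. The difference was -1.91 (standard error 0.43, limma, adjusted p = 0.0241), and it was -2.49 with the measured signal kept on every array.

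*Fars2* (phenylalanyl-tRNA synthetase) stood at 2.938 and 3.104 in the WT mice, at 1.28, 2.15 and 2.23 in the Smn1deltaSKM mice and at 2.63 and 2.68 in the Smn1deltaSKM+AFS mice. Smn1deltaSKM mouse 1 was the lowest, and all 3 lay below both WT mice. The difference was -1.13 (standard error 0.34, limma, adjusted p = 0.0471), with 9 of 12 Smn1deltaSKM myofibers below the lowest WT myofiber. *Cars2* (cysteinyl-tRNA synthetase) stood at 0.092 and 0.095 in the WT mice, at -0.86, -0.50 and -1.14 in the Smn1deltaSKM mice and at -0.43 and -0.34 in the Smn1deltaSKM+AFS mice. It had values on 7 of 12 Smn1deltaSKM arrays, with a lone myofiber standing for mouse 1, and all 7 lay below the lowest WT myofiber. The difference was -0.93 (standard error 0.28, limma, adjusted p = 0.0474). A second *Cars2* probe, with values on 6 WT, 7 Smn1deltaSKM and 3 Smn1deltaSKM+AFS arrays, was not tested. It stood at 0.22 and 0.92 in the WT mice and at 0.08, -0.21 and 0.01 in the Smn1deltaSKM mice. In the Smn1deltaSKM+AFS mice it stood at 1.12 and 0.25, not below WT.

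The other 9 tested synthetases were not called. *Lars2* (leucyl-tRNA synthetase, -0.88), *Aars2* (alanyl, -0.70), *Pars2* (prolyl, -0.61) and *Ears2* (glutamyl, -0.54) had every Smn1deltaSKM mouse below both WT mice, with adjusted p between 0.0858 and 0.194. For *Ears2* the gap was narrow, with Smn1deltaSKM mouse 1 at -1.012 and WT mouse 2 at -1.004. All 12 *Pars2* and all 10 *Ears2* values of Smn1deltaSKM myofibers lay within the WT range. On the second tested *Pars2* probe the mice overlapped, with Smn1deltaSKM mouse 2 at -1.54 and WT mouse 2 at -1.72. *Hars2*, which charges the histidine tRNA, lay on the other side, at 2.17 and 2.32 in the WT mice and at 2.45, 2.88 and 3.01 in the Smn1deltaSKM mice (difference 0.54, limma, adjusted p = 0.195). Its groups did not overlap, and 5 of 12 Smn1deltaSKM myofibers lay above the highest WT myofiber. *Iars2* (isoleucyl-tRNA synthetase) stood at 1.18 and 0.83 in the WT mice and at 1.68, 0.22 and 0.85 in the Smn1deltaSKM mice, a difference of -0.09 (adjusted p = 0.892). *Yars2* (tyrosyl-tRNA synthetase) stood at 0.75 and 0.64 in the WT mice and at 1.64, 0.30 and -0.20 in the Smn1deltaSKM mice, a difference of -0.12 (adjusted p = 0.876). On these probes Smn1deltaSKM mouse 1 lay above the WT mice and mouse 2 below them. The other *Iars2* probe, with values on all 27 arrays, differed by -0.30 and had Smn1deltaSKM mouse 1 at 0.41, below the WT mice at 0.97 and 0.71.

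The 2 probes of *Tars2* (threonyl-tRNA synthetase) lay on different sides. The brighter probe, which stood for the gene, was at 0.15 and 0.33 in the WT mice and at 1.28, 0.49 and 0.81 in the Smn1deltaSKM mice, a difference of 0.62 (limma, adjusted p = 0.235), while the other probe differed by -0.56 (adjusted p = 0.168 over all probes). No direction is therefore given for *Tars2*. *Wars2* (tryptophanyl-tRNA synthetase) was similar in this, with a difference of 0.14 for the brighter probe (-1.59 and -1.58 in the WT mice, -1.08, -1.59 and -1.67 in the Smn1deltaSKM mice) and -0.21 for the other, and neither was called.

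All 7 tested translation factors had a lower mean in Smn1deltaSKM than in WT, and the pair that recycles the ribosome showed the largest differences. *Gfm2* stood at 2.08 and 2.14 in the WT mice, at -0.01, 0.74 and 0.87 in the Smn1deltaSKM mice and at 1.23 and 1.70 in the Smn1deltaSKM+AFS mice. All 12 Smn1deltaSKM myofibers, whose levels ran from -0.62 to 1.17 with a median of 0.59, lay below the lowest of the 8 WT myofibers at 1.73. The difference of -1.58 (standard error 0.34, limma, adjusted p = 0.0195) is a 2.99-fold lower level. *Mrrf*, the ribosome recycling factor, stood at 0.83 and 0.94 in the WT mice, at -1.22, -0.22 and -0.42 in the Smn1deltaSKM mice and at -0.06 and -0.18 in the Smn1deltaSKM+AFS mice. All 11 Smn1deltaSKM myofibers with a value lay below the lowest WT myofiber, and so did all 7 Smn1deltaSKM+AFS myofibers. The difference was -1.51 (standard error 0.34, limma, adjusted p = 0.0216), a 2.84-fold lower level.

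*Gfm1*, the factor that moves the ribosome along the message, stood at 1.46 and 1.60 in the WT mice, at 0.40, 0.72 and 0.64 in the Smn1deltaSKM mice and at 0.61 and 0.95 in the Smn1deltaSKM+AFS mice. The mice of WT and Smn1deltaSKM did not overlap, but the myofibers did: 11 of 12 Smn1deltaSKM myofibers lay within the WT range, which reached down to -0.23 through WT myofiber 2. The difference was -0.94 (standard error 0.26, limma, adjusted p = 0.0390). *Mtif3*, an initiation factor, stood at 1.31 and 1.30 in the WT mice, at 0.45, 0.34 and 0.42 in the Smn1deltaSKM mice and at 0.17 and 0.43 in the Smn1deltaSKM+AFS mice. The 3 Smn1deltaSKM mice lay close together, and 11 of 12 Smn1deltaSKM and 7 of 7 Smn1deltaSKM+AFS myofibers were below all WT myofibers. The difference was -0.90 (standard error 0.25, limma, adjusted p = 0.0369). The other initiation factor, *Mtif2*, differed by -0.74 (adjusted p = 0.0732) with 11 of 12 Smn1deltaSKM myofibers below the lowest WT myofiber. *Tsfm* (-0.75, adjusted p = 0.275), which regenerates *Tufm*, and *Mtrf1* (-0.54, adjusted p = 0.161) were not called.

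*Lrpprc*, the messenger-binding partner of *Slirp*, showed the largest difference of the tested members, although that of *Rars2* was larger with the measured signal kept on every array. It stood at 3.78 and 3.51 in the WT mice, at 0.44, 2.47 and 2.24 in the Smn1deltaSKM mice and at 2.57 and 3.16 in the Smn1deltaSKM+AFS mice. All 12 Smn1deltaSKM myofibers lay below the lowest WT myofiber, with levels from -1.12 to 3.12 and a median of 2.03 against 3.36 to 4.27 and a median of 3.53 in WT. The difference was -1.93 (standard error 0.57, limma, adjusted p = 0.0461), a 3.80-fold lower level, and mouse 1 was far below mice 2 and 3. *Slirp* is listed on the array under an older name, which RefSeq gives as its synonym. Its probe stood at 4.92 and 4.74 in the WT mice and at 4.49, 4.04 and 3.73 in the Smn1deltaSKM mice, a difference of -0.74 that was not called (limma, adjusted p = 0.113 over all probes).

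**Figure D3:**
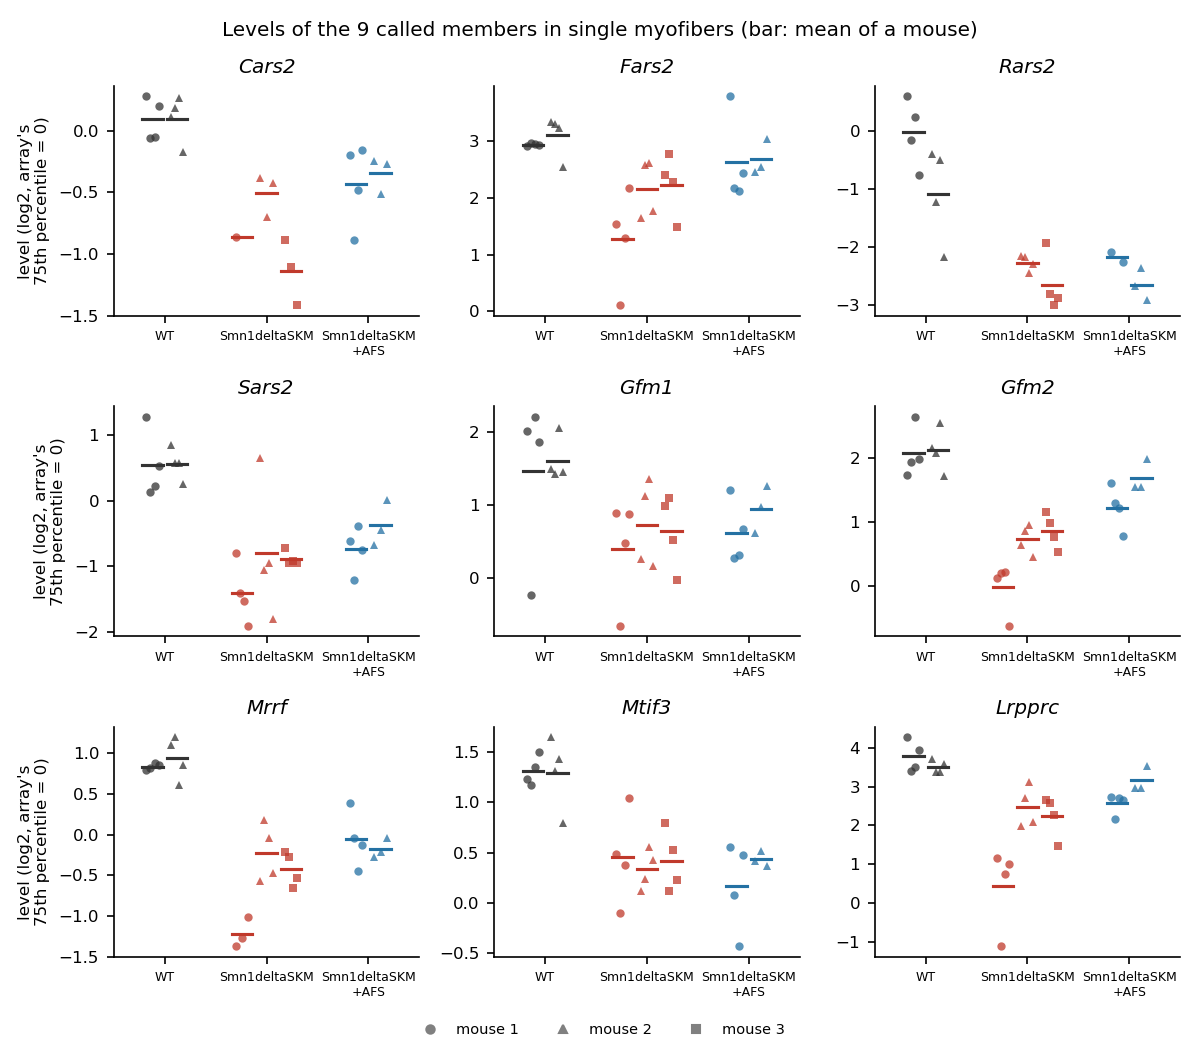
Levels (vertical axis, log2 relative to the 75th percentile of the array) of the 9 called members in each myofiber, by group and mouse; bars are mouse means and axes differ between panels. For *Gfm2*, *Mrrf* and *Lrpprc* every Smn1deltaSKM myofiber with a value lies below all 8 WT myofibers, whereas *Gfm1* overlaps.

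None of the genes that copy or transcribe mitochondrial DNA was called. *Polrmt*, the mitochondrial RNA polymerase, stood at 1.61 and 1.72 in the WT mice and at 0.79, 1.37 and 1.12 in the Smn1deltaSKM mice. The groups did not overlap, 11 of 12 Smn1deltaSKM myofibers lay below the lowest WT myofiber, and the difference was -0.58 (limma, adjusted p = 0.154). *Polg*, the catalytic subunit of the DNA polymerase, stood at -0.37 and -0.46 in the WT mice and at 0.50, -1.57 and -1.22 in the Smn1deltaSKM mice (difference -0.35, adjusted p = 0.674), mouse 1 lying above WT and mice 2 and 3 below. A second *Polg* probe differed by -0.90 (adjusted p = 0.163 over all probes), with Smn1deltaSKM mouse 1 at -0.82, between the WT mice at -1.04 and -0.48. *Polg2* differed by 0.065 (adjusted p = 0.878), the smallest difference of the tested members, from -1.16 and -1.17 in the WT mice against -0.75, -1.25 and -1.30 in the Smn1deltaSKM mice. *Ssbp1* differed by -0.27 (adjusted p = 0.546), at 3.95 and 4.17 in the WT mice and 4.24, 3.63 and 3.50 in the Smn1deltaSKM mice, with further probes at -0.50 and 0.58.

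Without either WT mouse, when the lone WT mouse left is assumed to vary like the other groups, no gene of the array was called, and the median of the members was -0.70 without WT mouse 1 and -0.55 without WT mouse 2. Without Smn1deltaSKM mouse 1, 2 or 3 the count of members called was 15, 4 and 3, beside 43.0%, 8.44% and 9.80% of all genes, and with the mouse number as a block it was 4 (*Gfm2*, *Lrpprc*, *Mrrf* and *Sars2*), beside 13.1% of all genes.

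The median level of the 16 members with values on all arrays shows the same comparison array by array. It ran from 1.19 to 1.93 with a median of 1.72 over the 8 WT myofibers, from 0.19 to 1.23 with a median of 0.85 over the 12 Smn1deltaSKM myofibers and from 0.80 to 1.45 with a median of 1.27 over the 7 Smn1deltaSKM+AFS myofibers. By mouse, it lay at 1.64 to 1.69 in WT, 0.65 to 0.98 in Smn1deltaSKM and 1.19 to 1.29 in Smn1deltaSKM+AFS, so the mice of the 3 groups did not overlap. Of the 12 Smn1deltaSKM myofibers 11 lay below the lowest WT myofiber, as did 2 of the 7 Smn1deltaSKM+AFS myofibers. Over the 10142 genes with values on all arrays the corresponding median was 2.03, 1.81 and 1.90 in these groups.

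**Figure D4:**
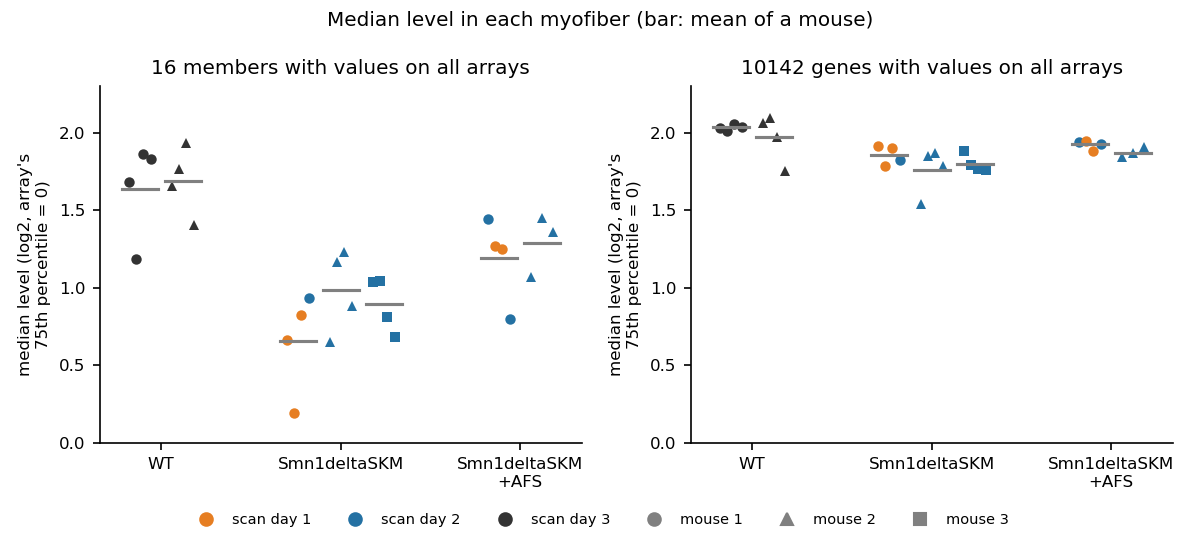
Median level (vertical axis, log2 relative to the 75th percentile of the array) over the 16 members (left) and the 10142 genes (right) with values on all arrays, by group, mouse (symbol) and scan day (colour); bars are mouse means. The medians of the members lie between 1.19 and 1.93 in WT and between 0.19 and 1.23 in Smn1deltaSKM, and no scan day holds WT beside another group.

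The comparison of Smn1deltaSKM+AFS with Smn1deltaSKM asks whether these genes differ between knockout mice with and without the transplanted cells. No member was called, and 0% of the 16648 genes tested were called (limma). At an unadjusted p under 0.05 stood 1 of 25 members and 3.2% of all genes. Of the 25 differences 21 were above 0, against 57.3% of all genes, with a median of 0.23 against 0.058. In 10 of the 24 members with values in every mouse the mice did not overlap, 9 of them with Smn1deltaSKM+AFS above, against 16.6% of all genes without overlap. The control mice of this comparison are the knockout mice of the previous one, and a low Smn1deltaSKM mouse 1 enters both. Within the scan days that held both groups, the median of the members was 0.18 on day 1 (1 mouse each) against 0.21 for all genes, and 0.37 on day 2 against 0.064.

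The largest differences were those of *Lrpprc*, *Gfm2* and *Fars2*, whose mouse values are given above. *Gfm2* was 0.93 higher in Smn1deltaSKM+AFS (standard error 0.34, limma, p = 0.0230, adjusted p = 1.00), with both treated mice above all 3 knockout mice and 6 of 7 treated myofibers still below the lowest WT myofiber. *Lrpprc* was 1.15 higher (standard error 0.57, adjusted p = 1.00) and *Fars2* 0.77 higher (standard error 0.34, adjusted p = 1.00), each again with both treated mice above all 3. The smallest differences were those of *Hars2* (-0.01), *Rars2* (0.057, over the 2 knockout mice with values) and *Wars2* (-0.07), and their mice overlapped. *Polg2* had the most negative difference, at -1.66 and -1.47 against -0.75, -1.25 and -1.30 (difference -0.46, adjusted p = 1.00). The other tested *Polg2* probe differed by -0.21, and its mice overlapped, at -1.76 and -1.65 against -0.01, -1.72 and -2.76. The brightest *Ssbp1* probe differed by 0.084 and its other tested probes by -0.11 and -0.79, so that no direction is given.

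Set against WT, the Smn1deltaSKM+AFS mice had 1 called member, *Rars2*, at a difference of -1.86 (standard error 0.42, limma, adjusted p = 0.0450), a 3.62-fold lower level. Of all genes 7.77% were called, 4.3% as lower and 3.47% as higher. At an unadjusted p under 0.05 stood 6 of 25 members and 29.7% of all genes, and the mice did not overlap in 17 of 25 members and 67.9% of all genes. *Rars2* had values on 5 of 7 treated arrays and passed the filter on missing values only through WT, where it was higher, so the call carries no weight. Both treated mice, at -2.17 and -2.65, lay below both WT mice, and 4 of the 5 treated myofibers with a value lay below the lowest WT myofiber. *Sars2* (-1.10, adjusted p = 0.0698), *Mrrf* (-1.003, adjusted p = 0.119) and *Mtif3* (-1.003, adjusted p = 0.0581) followed, with every treated myofiber below all WT myofibers. The smallest differences were those of *Polg* (0.016), *Yars2* (0.052) and *Wars2* (0.065). The second probes of *Polg* (-0.72), *Pars2* (0.088 against -0.37 for the brighter probe) and *Tars2* (-0.05 against 0.85) lay elsewhere. Of the 25 members 19 lay below 0, against 51.9% of all genes, with a median of -0.38 against -0.04. The call of *Rars2* was lost without either treated mouse, under every other scaling tried and with the measured signal kept on every array. It had no test without either WT mouse or without Smn1deltaSKM mouse 2 or 3, and 0 members were called in those fits.

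The 31 genes belong to a wider apparatus, whose other parts were listed alongside them. Over all genes tested in Smn1deltaSKM against WT, 21.7% were called, 14.1% as lower. Of all genes 55.5% lay below 0, and their median was -0.14. Of 7 further genes of tRNA charging, 5 were tested and 0 called in Smn1deltaSKM against WT, with a median of -0.48. Of 17 further genes of mitochondrial DNA upkeep and transcription, 10 were tested, all lay below 0 and 1 was called, *Dguok*, the kinase that supplies deoxyguanosine nucleotides for mitochondrial DNA (-1.42, limma, adjusted p = 0.0197). Of 26 further genes of mitochondrial RNA processing and translation, 22 were tested and 6 were called lower, 0 higher, with a median of -0.66. They were led by the RNA-binding protein *Fastkd5* (-1.35, adjusted p = 0.0149), *Ptcd3* of the small mitochondrial ribosomal subunit (-1.33, adjusted p = 0.0289) and the RNA-degrading enzyme *Pnpt1* (-1.22, adjusted p = 0.0211). In Smn1deltaSKM+AFS against Smn1deltaSKM none of these was called.

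The array held probes for 6 of the 13 messages of the mitochondrial genome itself. All 6 lay below 0 in Smn1deltaSKM against WT, and 4 of them were called, beside 55.5% and 21.7% of all genes. *mt-Nd6*, *mt-Nd4l* and *mt-Nd1*, subunits of complex I, differed by -1.04, -0.98 and -0.96 (limma, adjusted p = 0.0291, 0.0472 and 0.0465). In Smn1deltaSKM+AFS against Smn1deltaSKM the 6 lay above 0 with a median of 0.54, and none was called.

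Synthetases of the cytosol charge the tRNAs used by cytosolic ribosomes. Of 17 tested, 7 were called lower in Smn1deltaSKM and 0 higher, with a median of -0.51. The mitochondrial ones had 4 calls of 13 and a median of -0.61, but the calls of *Cars2* and *Rars2* carry no weight. Among all genes tested 14.1% were called lower and 7.67% higher, with a median of -0.14. The largest differences were those of *Mars* (-2.02, adjusted p = 0.0243), *Iars* (-1.90, adjusted p = 0.0115) and *Cars* (-1.44, adjusted p = 0.0197). The difference between mitochondrial and cytosolic synthetases was not tested.

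Markers of fiber type and of other cells also differed between these groups. *Myh1*, the fast IIx myosin, was 2.20 higher in Smn1deltaSKM than in WT (limma, adjusted p = 0.0228), *Myh4* (fast IIb) differed by -0.42 (adjusted p = 0.235) and *Myh7* (slow) by -0.08 (adjusted p = 0.818). *Myh2* (fast IIa) had a value on 0 WT, 2 Smn1deltaSKM and 2 Smn1deltaSKM+AFS arrays and was not tested. Of 4 immune markers 2 were tested and both were called higher in Smn1deltaSKM, *Cd68* by 2.99 (adjusted p = 0.0375) and *Ptprc* by 1.33 (adjusted p = 0.0218), and the summed level of the 4 ran from 0.092 to 0.52 in WT mice, 1.49 to 3.31 in Smn1deltaSKM mice and 1.29 to 3.32 in Smn1deltaSKM+AFS mice. *Emr1* and *Lyz2* had values on too few arrays to be tested, and their Smn1deltaSKM mice lay on both sides of the WT mice. By measured signal, *Lyz2* stood at -1.82 and -1.76 in the WT mice and at -3.35, -1.60 and -2.52 in the Smn1deltaSKM mice. The brighter *Emr1* probe stood at -3.40 and -3.02 in the WT mice and at -3.75, -2.21 and -2.52 in the Smn1deltaSKM mice. Of 4 fibroblast markers 1 was tested and 0 called, *Pdgfra* had a value on 1 array, and *Dcn* had values on 1 of 8 WT, 12 of 12 Smn1deltaSKM and 5 of 7 Smn1deltaSKM+AFS arrays. With the measured signal kept, *Dcn* stood at -3.96 and -1.54 in the WT mice, at 1.42, 1.91 and -0.20 in the Smn1deltaSKM mice and at 1.29 and -0.80 in the Smn1deltaSKM+AFS mice. The other fibroblast markers overlapped between WT and Smn1deltaSKM mice. *Col3a1*, the tested marker, stood at -1.13 and 0.10 in the WT mice and at 2.34, 0.69 and -1.38 in the Smn1deltaSKM mice. *Col1a1*, with values on 2, 9 and 5 arrays, stood by measured signal at -4.83 and -1.40 in the WT mice and at -0.84, -0.54 and -3.08 in the Smn1deltaSKM mice. The summed level of the 4 fibroblast markers ran from -1.08 to 0.65 in WT mice, 0.49 to 3.06 in Smn1deltaSKM mice and 0.82 to 2.28 in Smn1deltaSKM+AFS mice. Of the 6 myofiber markers 5 lay below 0 in Smn1deltaSKM against WT, and 1 was called lower, the creatine kinase *Ckm* (-1.76, adjusted p = 0.0218). *Mb* lay on the other side, with a difference of 0.95 (limma, adjusted p = 0.112). The part of fiber type, of other cells and of the scan in the differences of the members was not tested.

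Across the 27 myofibers the members that followed each other most closely were *Fars2* and *Lrpprc* (Pearson's r = 0.869), *Aars2* and *Polrmt* (r = 0.866) and *Gfm2* and *Lrpprc* (r = 0.811). With the group means removed these were 0.760, 0.803 and 0.536. The median over all 120 pairs of the 16 members with values everywhere was 0.328, and 0.0992 with the group means removed, over arrays that share mice, slides and scaling. The median SD of a member between myofibers of the same mouse was 0.36 in WT, 0.38 in Smn1deltaSKM and 0.33 in Smn1deltaSKM+AFS, beside 0.097, 0.33 and 0.19 between mouse means, which average several myofibers and so vary less by construction.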

How the data were processed

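Per the labels and the file headers, the authors amplified RNA of single myofibers, hybridized it in 1 colour (Cy3) to Agilent mouse arrays and scanned them. The deposited scanner files give Feature Extraction (10.7.3.1) processed signal intensity per spot, background-subtracted and detrended but not scaled between arrays, with probe positions on mm9. The deposited value table, used as an alternative, holds the authors' normalized intensity. Here log2 processed signal minus the 75th percentile of each array was used. Spots marked as not found, not well above background or uneven gave no value, and spots of a probe were averaged. Probes needed values on 75% of arrays (20 arrays for Smn1deltaSKM against WT, 27 otherwise), and the brightest stood for its gene. Mouse means of the 3 groups (7 mice) were fitted in 1 model with limma 3.58.1 (R 4.3.3), adjusted over all genes, and called at 0.05. The number of mice limits the precision.

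The script was tested on simulated data. The members, lists and tests were chosen with earlier results of these data known. The lists besides the members were further mitochondrial DNA, tRNA charging and RNA genes, mitochondrially encoded genes, cytosolic synthetases, fiber type myosins and cell type markers. Full values are given for called members, the 3 largest and 3 smallest differences of each comparison and members with disagreeing probes, and at most the 3 largest called genes of other lists. Endothelial, fibroblast, satellite cell and nerve markers had at most 1 tested gene per list, and 0 of them was called. The study's SAM test on myofibers was not run, and limma on myofibers stands in for it.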

Additional observations from a re-analysis of the deposited data

Results flagged for a closer look

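In 6 of 50 sets, each the values of 1 member in 1 group, a single myofiber lay far from all others of its group. The 50 sets did not cover every tested member in all 3 groups. They share arrays and mice, so how many would arise by chance is not given. *Gfm1* was at -0.23 in WT myofiber 2, with the nearest of the 8 at 1.42. *Iars2* was at 0.41 in WT myofiber 8 (nearest of 6 at 0.99) and at 2.55 in Smn1deltaSKM+AFS myofiber 3 (nearest of 7 at 1.41). *Yars2* was at 2.44 in the same Smn1deltaSKM+AFS myofiber 3 (nearest of 7 at 0.70). In Smn1deltaSKM+AFS myofiber 2, *Polg* was at 1.04 (nearest of 6 at -0.47) and *Polg2* at -2.01 (nearest of 6 at -1.55). Smn1deltaSKM+AFS myofibers 2 and 3 shared a slide and a scan day that held no other myofiber of their group. The part of the slide in these values was not tested.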

How the results depend on the processing

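The median of the members stayed below 0 in Smn1deltaSKM against WT and in Smn1deltaSKM+AFS against WT, and above 0 in Smn1deltaSKM+AFS against Smn1deltaSKM, under every alternative run. The counts of calls did not stay. In Smn1deltaSKM against WT the 9 calls were 36% of the tested members, beside 21.7% of all genes. After quantile normalization 4 members were called, beside 16.5% of all genes. The count was also 4 with arrays centred on their median (18.3% of all genes) and in the authors' value table (16.2%). It was again 4 with slide as a random block (10.8%) and with the mice of the 2 groups only (16.4%). It was 5 after normexp with quantile normalization (15.8%) and with no filter (13.7%). Taking myofibers as replicates gave 17 calls (16 lower) beside 54.3% of all genes, and leaving out each mouse in turn gave 0 to 15 beside 0% to 43.0%. The count was 0 without either WT mouse, when 0 genes of the array were called and the lone WT mouse is assumed to vary like the other groups, 15 without Smn1deltaSKM mouse 1 and 4 without either Smn1deltaSKM+AFS mouse. The cause was not tested. *Sars2* kept its call in 20 of 22 alternatives, *Gfm2* in 19 of 22 and *Mrrf* in 19 of 21. The median of -0.70 was -0.46 after normexp and -0.48 with centred arrays, and -0.83 to -0.55 with a mouse left out. Centring moved the median of all genes from -0.14 to 0.079 and the share of lower calls among all calls from 64.7% to 44.1%. That share was 54.6% with the measured signal kept and 48.5% with no filter.

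In Smn1deltaSKM+AFS against Smn1deltaSKM 0 members were called under every alternative at an adjusted p under 0.05, and 1 at an unadjusted p under 0.05. The median of 0.23 was 0.33 after quantile normalization, 0.14 with centred arrays, 0.38 in the authors' value table, 0.34 with the measured signal kept, 0.35 with no filter, 0.34 with the mean of all probes and 0.38 without Smn1deltaSKM myofibers 1 to 3. It was 0.22 to 0.31 with a mouse left out and 0.25 with scan day as a block. In Smn1deltaSKM+AFS against WT (1 call) the count was 0 after quantile normalization, after normexp, with centred arrays, in the authors' value table and with the measured signal kept. It was 9 with myofibers as replicates, 5 with mouse as a random block and 4 with the mice of the 2 groups only, beside 41.7%, 20.4% and 20.9% of all genes. It was 6 at an unadjusted p under 0.05, 3 at an adjusted p under 0.1, and 0 to 5 with a mouse left out.

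Over all alternatives no member changed sign in a comparison in which it was called. In Smn1deltaSKM against WT 24 of 540 member values had another sign than first reported, all in the uncalled *Iars2*, *Polg2*, *Ssbp1*, *Wars2* and *Yars2*. In Smn1deltaSKM+AFS against Smn1deltaSKM 43 of 559 values did so, in 11 of the 25 members, *Mtif3* and *Rars2* among them. In Smn1deltaSKM+AFS against WT 20 of 538 values did so, in 7 members, *Cars2* among them. Mice of different groups share only a number, and deviations of same-numbered mice correlated at -0.06 to 0.31. With the mouse number as a replicate block, 4 members were called in Smn1deltaSKM against WT, 0 in Smn1deltaSKM+AFS against Smn1deltaSKM and 1 in Smn1deltaSKM+AFS against WT. Scan day as a block was not run for comparisons with WT, since no day holds WT beside another group. With 2 or 3 mice a group and dim probes without values on many arrays, a difference under the spread between mice could not be called.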
